A study of Mus musculus with 17 samples.

Results

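The 10 genes followed here encode the parts of the T cell receptor and the adaptor that receives its signal, measured in mouse skin cells sorted as innate lymphoid cells (ILCs). They were given as a list of names and were all found by symbol or synonym: Cd3e, Cd3d, Cd3g, Cd247, Trac, Trbc1, Trbc2, Trdc, Tcrg-C1 and Lat, 10 of the 54446 genes in the bulk count files and 10 of the 34943 or 36125 genes listed in the single-cell files. ILCs are tissue-resident lymphocytes that carry no rearranged antigen receptor. The study asked how ILCs that carry a fate-map (fm) reporter differ from ILCs that do not, with and without a floxed Gata3 gene, how tamoxifen-induced loss of Gata3 changes skin ILCs, and which subgroups single-cell sequencing shows. GATA3 is a transcription factor needed for the ILC2 programme and for T cell development.

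All mice were on the C57BL/6 background. The 14 bulk libraries came from live skin cells sorted as lineage-negative, gamma-delta T cell receptor-negative and CD90-positive. Reporter-positive ILCs labelled Gata3flox (fm_pos_Gata3flox, n = 3) and reporter-negative ILCs labelled Gata3flox (fm_neg_Gata3flox, n = 3) came from fate-map mice described as deleted for Gata3. Reporter-positive (fm_pos, n = 2) and reporter-negative ILCs (fm_neg, n = 2) came from fate-map mice with intact Gata3. The reporter stays on in cells in which the gene that drives it was active at any earlier time, so a positive cell need not use that gene when it is sorted. ILCs of Gata3 fl/fl CreERT2 mice (Gata3KO_tamoxifen, n = 2) and of wild-type mice (WT_tamoxifen, n = 2) were collected after 3 injections of 5 mg tamoxifen, which both genotypes received. The 3 single-cell libraries held skin ILCs with no stated site (sc_skin_ILC), dorsal skin ILCs 10 days after depilation (sc_dorsal_day10) and dorsal skin ILCs on day 0 (sc_dorsal_day0). Which lineage markers were used in the sort, the promoter that drives CreERT2, the animals' ages and the number of animals behind each library were not given in the sources used here. Replicates are therefore only known to be separate libraries, and each p-value measures the spread between them, which may be technical.

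The T cell receptor is a pair of variable chains, alpha with beta or gamma with delta, that recognises antigen and has almost no tail inside the cell. Signal is carried by the CD3 epsilon, delta and gamma chains and the zeta chain, whose cytoplasmic motifs are phosphorylated by the kinase LCK and then hold the kinase ZAP-70, which phosphorylates the scaffold LAT. ILCs do not need the receptor, but their precursors share early steps with T cells, and transcripts from unrearranged receptor constant genes can be made in lymphocytes that have no receptor protein. Gamma-delta and alpha-beta T cells are also abundant in mouse skin and express the CD3 chains, the zeta chain and LAT, each with its own pair of receptor chains.

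Most of the genes lie in clusters. On mm10, the build the files use, Cd3g (chr9, 44969572 to 44980431), Cd3d (chr9, 44981786 to 44987339) and Cd3e (chr9, 44998740 to 45009627) are neighbours. The alpha constant gene Trac (chr14, 54220521 to 54224206) and the delta constant gene Trdc (chr14, 54142851 to 54148868) share a locus, the beta constant genes Trbc1 (chr6, 41538218 to 41539881) and Trbc2 (chr6, 41546730 to 41548352) lie in tandem, and Tcrg-C1 (chr13, 19214103 to 19217024) is a gamma constant gene. Cd247 (chr1, 165788681 to 165877277) and Lat (chr7, 126363824 to 126369570) stand alone. Cd3d and Cd3g are read in opposite directions from starts 1355 bases apart. Because the 3 CD3 chain genes varied together across libraries, the promoter windows of these neighbours are shown, from 250 bases before to 50 bases after the start, from RefSeq on GRCm38.p6. Capitals mark matches on either strand to words for GATA factors (AGATAA), E-box proteins (CACCTG or CAGCTG), ETS factors (CTTCCT) and TCF factors (CTTTGA).
Cd3g promoter, chr9:44980382-44980681, minus strand: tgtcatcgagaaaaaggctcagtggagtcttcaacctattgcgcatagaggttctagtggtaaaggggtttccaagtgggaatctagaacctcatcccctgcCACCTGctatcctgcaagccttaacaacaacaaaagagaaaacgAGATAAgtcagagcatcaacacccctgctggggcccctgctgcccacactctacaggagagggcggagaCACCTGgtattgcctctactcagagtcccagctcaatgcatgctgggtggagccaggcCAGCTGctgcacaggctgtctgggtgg
Cd3d promoter, chr9:44981536-44981835, plus strand: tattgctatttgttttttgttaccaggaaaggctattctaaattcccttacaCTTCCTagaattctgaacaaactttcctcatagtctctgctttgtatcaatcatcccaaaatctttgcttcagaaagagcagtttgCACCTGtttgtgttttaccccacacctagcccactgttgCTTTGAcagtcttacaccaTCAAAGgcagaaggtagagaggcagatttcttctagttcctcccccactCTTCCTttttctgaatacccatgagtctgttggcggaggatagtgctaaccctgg
Cd3e promoter, chr9:45009562-45009861, minus strand: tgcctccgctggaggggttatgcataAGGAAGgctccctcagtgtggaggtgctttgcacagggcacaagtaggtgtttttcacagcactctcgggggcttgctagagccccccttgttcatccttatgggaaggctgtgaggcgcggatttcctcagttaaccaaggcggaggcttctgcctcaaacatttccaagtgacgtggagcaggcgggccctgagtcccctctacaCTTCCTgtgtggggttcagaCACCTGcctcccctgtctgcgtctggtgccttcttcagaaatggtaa

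The GATA word occurred once in the Cd3g window, starting at base -104 from the start, and was not found in the windows of Cd3d, Cd3e, Cd247 and Lat. It was present in 11.18% of 32851 mouse promoters. E-box words were found 3 times in the Cd3g window and in 1 copy each for Cd3d, Cd3e and Cd247, against 32.95% of all promoters with at least 1. The ETS word was found in 2 copies in each of the Cd3d, Cd3e, Cd247 and Lat windows (35.35% of all promoters held it), and the TCF word in 2 copies in that of Cd3d and 1 copy in that of Cd247 (16% of all promoters). These are matches of letters, not sites of binding. Promoter windows were matched for 5 of the 10 genes.

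Trbc1 and Trbc2 share part of their sequence, which limits what their separate counts mean. The first constant exons of both are 375 bases long and 374 of these are identical. The 60 bases around the single difference are shown, with the differing base in capitals, from GENCODE vM21.
Trbc1, chr6:41538447-41538506, plus strand: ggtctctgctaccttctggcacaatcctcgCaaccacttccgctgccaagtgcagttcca
Trbc2, chr6:41546959-41547018, plus strand: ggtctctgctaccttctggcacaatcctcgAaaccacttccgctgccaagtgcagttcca

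Of the 50-base words of the Trbc1 transcript, 41.13% are also found in Trbc2, so reads there have 2 equal origins and their assignment depends on the authors' counting. For Tcrg-C1 the shares were 17.94% with Tcrg-C2, 17.6% with Tcrg-C3 and 0 with Tcrg-C4. Cd3e is overlapped by 2 other gene models, and the strand setting of the counting was not given, so some of its reads may have gone uncounted or to those models.

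The targeted gene checks the labels. Gata3 was measured at 154, 235 and 307 CPM (counts per 1000000 counts of the library, scaled with TMM factors) in the fm_pos_Gata3flox libraries, against 164 and 303 CPM in fm_pos libraries. It was measured at 264, 430 and 442 CPM in fm_neg_Gata3flox libraries, against 381 and 504 CPM in fm_neg libraries. The libraries labelled Gata3KO_tamoxifen had 299 and 314 CPM, against 381 and 581 CPM in WT_tamoxifen libraries. The Gata3KO_tamoxifen mean of 307 ± 10.6 CPM against 481 ± 141 CPM in wild type (SD, n = 2 each) did not pass the test, with a log2 fold change of -0.65 ± 0.26 (SE) and an adjusted p of 0.742 in edgeR's quasi-likelihood test. Gata3 was called in no comparison. The counts cover all exons and the deleted exon was not given, so a total near the control level does not show whether a deletion took place, and the directions below are those of the libraries as labelled. Depth ran from 14450612 to 44098274 counts per library, and other cells' transcripts differed between groups: summed CPM of 7 fibroblast markers were 143 to 336 in fm_pos_Gata3flox, 414.6 to 1073 in fm_neg_Gata3flox, 71.6 to 187 in fm_pos, 6068 to 8522 in fm_neg, 3077 to 4197 in Gata3KO_tamoxifen and 1039 to 3861 in WT_tamoxifen libraries. The part of these transcripts in the results below was not tested. Summed CPM of marker lists in the bulk libraries, here and below, are not TMM-scaled, unlike the CPM of single genes.

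Every member was detected in all 14 bulk libraries, at very unequal levels. Per kilobase of exon, Trbc1 was the most abundant, with 561 to 1158 CPM per kb, followed by Trbc2 with 263 to 769 CPM per kb. Lat (116 to 365), Cd3g (57.4 to 249), Trac (31.0 to 360) and Tcrg-C1 (44.4 to 191 CPM per kb) overlapped each other in range. Cd3d had 4.75 to 72.0 CPM per kb, Cd247, the zeta chain, 3.99 to 16.9 CPM per kb and Trdc 2.43 to 17.6 CPM per kb. Cd3e, the epsilon chain on which assembly of the complex depends, had 0.346 to 15.3 CPM per kb, and its group means lay above those of Trdc in fm_pos, fm_neg and WT_tamoxifen and below them in the other groups. Within every library Cd3e was thus measured far below the beta constant genes and below Cd3g, its partner in the receptor.

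**Figure D1:**
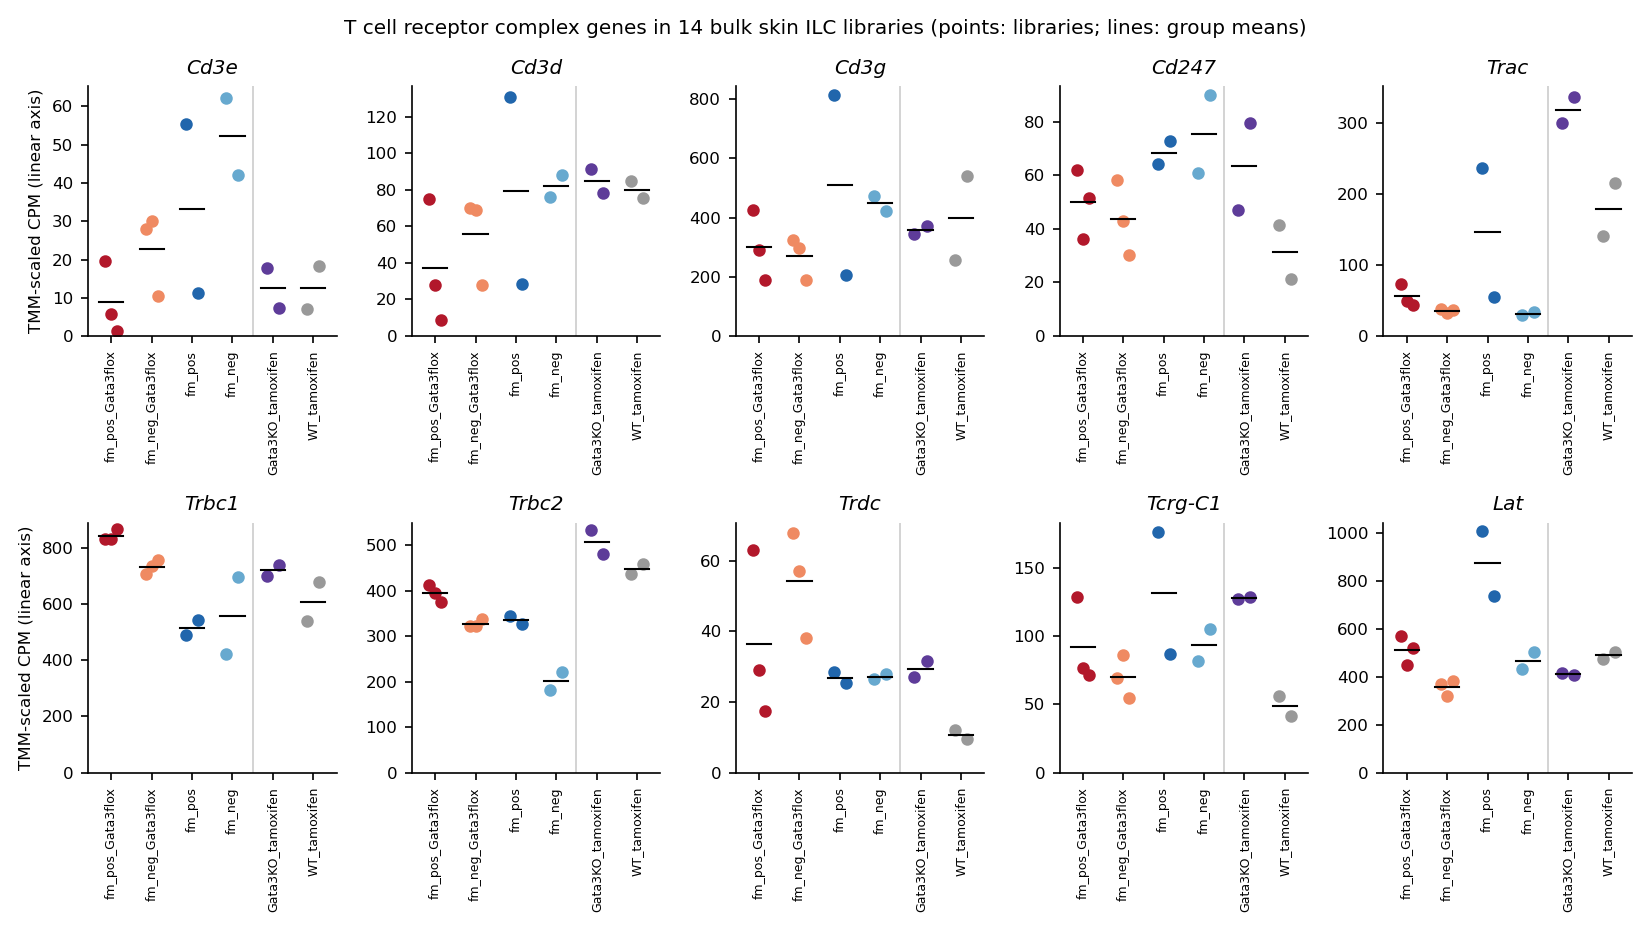
TMM-scaled CPM (linear axis) of the 10 genes in each bulk library, with 1 panel a gene and 1 point a library, grouped from left to right as fm_pos_Gata3flox, fm_neg_Gata3flox, fm_pos, fm_neg, Gata3KO_tamoxifen and WT_tamoxifen. Trbc1 stays between 420 and 867 CPM in all libraries, while Cd3e runs from 1.41 to 62.3 CPM and differs between libraries of the same group.

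In mice with intact Gata3, reporter-positive ILCs had more Trbc2 and Lat than reporter-negative ILCs, and the CD3 chains did not differ beyond the spread between libraries. Trbc2 had 345 and 327 CPM in fm_pos libraries, against 182 and 220 CPM in fm_neg libraries. Lat had 1010 and 738 CPM in fm_pos libraries, against 434 and 502 CPM in fm_neg libraries. For neither gene did the groups overlap. The log2 fold change was 0.74 ± 0.15 for Trbc2 (adjusted p = 0.0357) and 0.90 ± 0.20 for Lat (adjusted p = 0.0431; SE, n = 2 each, edgeR's quasi-likelihood test over 17456 genes). These 2 of 10 genes called higher, and none lower, stand against 0.624% of all genes called higher, 2.11% called lower and 2.74% called in either direction. Both calls were lost without fm_pos 1 (Trbc2 0.71, adjusted p = 0.0850; Lat 0.66, adjusted p = 0.136) and without fm_neg 1 (0.61, adjusted p = 0.129; 0.80, adjusted p = 0.140), and that of Lat without fm_neg 2 (1.02, adjusted p = 0.0737). They were also lost when libraries were scaled to leukocyte genes, which set the log2 fold changes at 0.20 and 0.35 and moved the median of all genes by -0.52.

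Trac, the alpha constant gene, had a larger log2 fold change than either of these genes and was not called. It had 237 and 55.7 CPM in fm_pos libraries, against 29.0 and 33.3 CPM in fm_neg libraries. The groups did not overlap, but the fm_pos libraries differed widely from each other, and the log2 fold change of 2.23 ± 0.56 had an adjusted p of 0.0677. Without fm_pos 2 the log2 fold change was 2.94 (adjusted p = 0.00277), and without fm_pos 1 it was 0.84 (adjusted p = 0.259). Trac, Trbc2 and Lat were the 3 of 10 genes whose groups did not overlap, against 35.0% of all genes.

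The CD3 chain genes varied more between the fm_pos libraries than between the groups. Cd3g had 813 and 206 CPM in fm_pos libraries, against 473 and 422 CPM in fm_neg libraries. Cd3d had 131 and 28.3 CPM in fm_pos libraries, against 76.0 and 87.9 CPM in fm_neg libraries. Cd3e had 55.3 and 11.2 CPM in fm_pos libraries, against 62.3 and 42.1 CPM in fm_neg libraries. For each of the 3 genes fm_pos 1 was high and fm_pos 2 was low, with the fm_neg libraries between them or close to the higher value. Their log2 fold changes were 0.19 ± 0.56, -0.04 ± 0.90 and -0.65 ± 1.05. Tcrg-C1 had the same order within fm_pos, with 176 and 86.7 CPM, against 81.7 and 105 CPM in fm_neg libraries. Cd247 (64.0 and 72.6 CPM in fm_pos, 60.8 and 89.9 CPM in fm_neg), Trbc1 (488 and 542 CPM in fm_pos, 420 and 697 CPM in fm_neg) and Trdc (28.3 and 25.3 CPM in fm_pos, 26.4 and 27.8 CPM in fm_neg) overlapped between the groups.

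The library fm_pos 1 also stood apart for alpha-beta T cell markers. Cd8a and Cd8b1, the chains of the CD8 coreceptor, were at 36.1 and 28.8 CPM in fm_pos 1, and at 0 and 0.03 CPM in fm_pos 2. Cd6, a receptor of mature T cells, was at 23.8 CPM in fm_pos 1 and 0.05 CPM in fm_pos 2. Of the 9 alpha-beta T cell markers, Cd4, Cd5 and Foxp3 were at 0 in fm_pos 1, and their summed level was 155 to 299 CPM in fm_pos libraries, against 191 to 195 CPM in fm_neg libraries. Most of that sum is Cd28, a costimulatory receptor, at 146 to 165 CPM in fm_pos, against 157 to 172 CPM in fm_neg libraries. The 9 skin gamma-delta T cell markers summed to 1134 to 1350 CPM in fm_pos libraries, with 0 of 9 at 0, against 420 to 662 CPM in fm_neg libraries, with 1 or 2 of 9 at 0. Most of that difference lay in 5830411N06Rik, at 657 and 524 CPM in fm_pos, against 7.93 and 83.9 CPM in fm_neg libraries. In the dorsal single cells below, this gene and the reporter transcript tdtomato led a cluster of 424 cells. Cd3e was counted in 0.472% of those cells, which limits 5830411N06Rik as a measure of gamma-delta T cells. The sums also hold Trdv4, which limits them as a measure of gamma-delta T cells. In the single skin cells below, Trdv4 had 35.1 CPM in the cluster with the most Trdc and 39.3 CPM in the other skin cells. Blk, a kinase of the SRC family, was at 27.1 and 15.001 CPM in fm_pos, against 0 and 4.94 CPM in fm_neg libraries. The part of T cells in these values was not tested, and in bulk RNA more cells of a type and more RNA per cell cannot be told apart.

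Among ILCs from mice labelled Gata3flox, none of the 10 genes was called between fm_pos_Gata3flox and fm_neg_Gata3flox, against 0.361% of all genes called. At an unadjusted p under 0.05, 1 of the 10 genes and 1360 of 17456 genes passed. Lat had 571, 448 and 520 CPM in fm_pos_Gata3flox libraries, against 370, 321 and 382 CPM in fm_neg_Gata3flox libraries. Trbc2 had 412, 394 and 376 CPM in fm_pos_Gata3flox libraries, against 322, 322 and 337 CPM in fm_neg_Gata3flox libraries. As in intact mice the reporter-positive libraries of both genes lay above all reporter-negative ones, with smaller log2 fold changes of 0.52 ± 0.16 for Lat (adjusted p = 0.357) and 0.27 ± 0.12 for Trbc2 (adjusted p = 0.659). Trac, with 73.7, 49.7 and 44.3 CPM in fm_pos_Gata3flox, against 38.0, 32.1 and 37.1 CPM in fm_neg_Gata3flox libraries, and Trbc1, with 832, 831 and 867 CPM against 705, 736 and 755 CPM, also did not overlap. These 4 of 10 compare with 18.2% of all genes. The gamma-delta T cell markers, which include Trdv4 and 5830411N06Rik with the limits given above, summed to 1048 to 1382 CPM in fm_pos_Gata3flox, against 571 to 662 CPM in fm_neg_Gata3flox libraries. Their part in these values was not tested.

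Cd3e ran in the other direction, without passing the test. It had 19.6, 5.72 and 1.41 CPM in fm_pos_Gata3flox libraries, against 28.1, 29.9 and 10.4 CPM in fm_neg_Gata3flox libraries, a log2 fold change of -1.36 ± 0.87 (adjusted p = 0.857). The groups overlapped. Cd3d had 75.02, 27.8 and 8.62 CPM in fm_pos_Gata3flox libraries, against 70.3, 68.9 and 28.0 CPM in fm_neg_Gata3flox libraries. In fm_pos_Gata3flox the library with the most Cd3e and Cd3d also had the most Cd8a (52.9 CPM, against 19.3 and 1.18 CPM in the other libraries of that group) and Cd8b1 (63.3 CPM, against 20.2 and 2.85 CPM). The part of CD8-expressing T cells in this order was not tested. Cd3g (427, 289 and 188 CPM in fm_pos_Gata3flox, 324, 298 and 188 CPM in fm_neg_Gata3flox), Cd247, Trdc and Tcrg-C1 overlapped between the groups.

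Whether the reporter difference depended on the Gata3 label was tested as an interaction. None of the 10 genes was called, against 1.01% of all genes; 2 of the 10 genes and 2586 of all genes had an unadjusted p under 0.05. Those 2 were Trbc2 (-0.47 ± 0.20, adjusted p = 0.305) and Trac (-1.59 ± 0.69, adjusted p = 0.322), both with a smaller reporter difference in mice labelled Gata3flox. Without fm_pos 2, Trac was called (-2.29, adjusted p = 0.021), and without fm_pos 1 its interaction was -0.20.

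**Figure D2:**
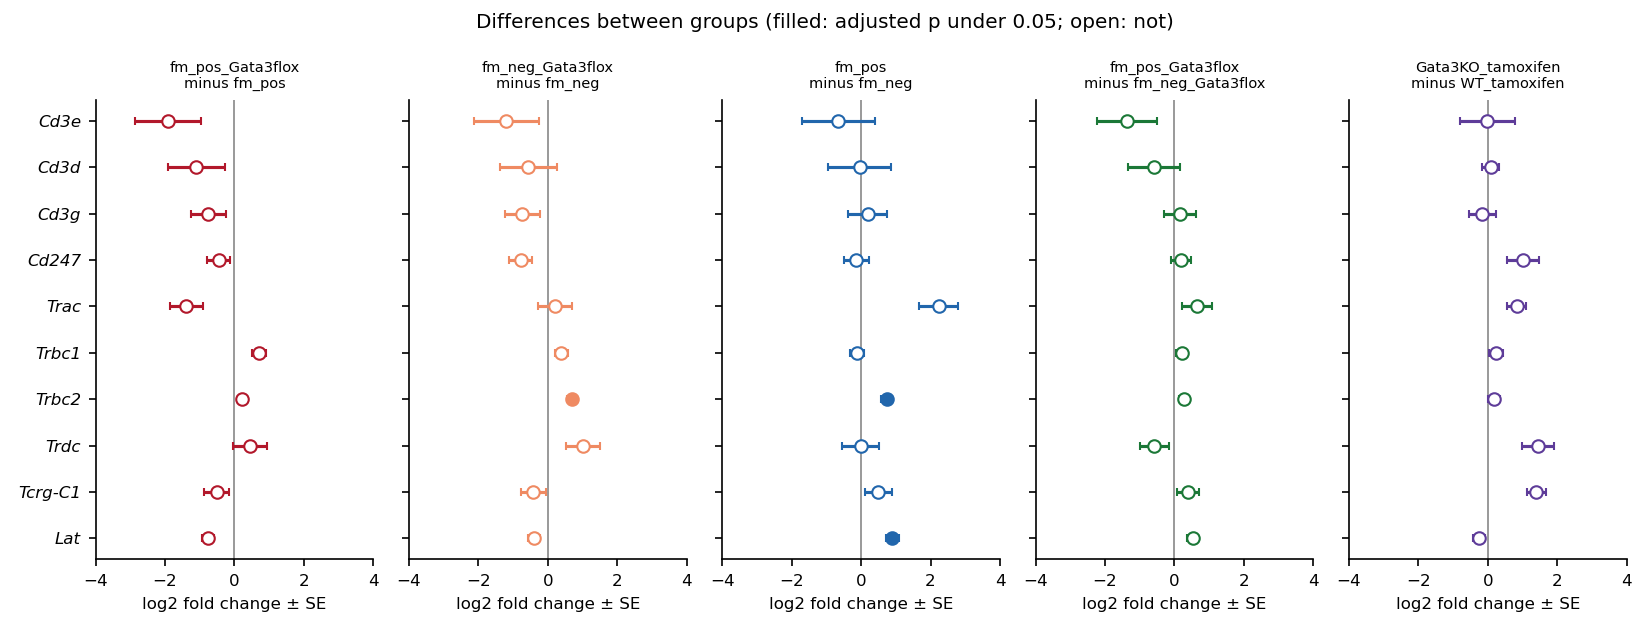
Log2 fold change with its SE for the 10 genes in each bulk comparison, from edgeR's fit; filled points passed an adjusted p of 0.05. The filled points are Trbc2 and Lat in fm_pos against fm_neg and Trbc2 in fm_neg_Gata3flox against fm_neg, and the widest error bars are those of Cd3e and Cd3d.

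The label Gata3flox itself was compared within reporter-positive and within reporter-negative ILCs; these comparisons share their libraries with those above, so their values are given side by side and not as independent results. In reporter-negative ILCs, Trbc2 was higher in mice labelled Gata3flox. It had 322, 322 and 337 CPM in fm_neg_Gata3flox libraries, against 182 and 220 CPM in fm_neg libraries, a log2 fold change of 0.70 ± 0.14 (adjusted p = 0.0486). The groups did not overlap. This was 1 of 10 genes called, against 0.596% of all genes called higher and 1.33% in either direction, and it was lost without any 1 of the 5 libraries (adjusted p of 0.0679 to 0.185). Of the 10 genes, 8 had groups that did not overlap, against 39.5% of all genes.

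Of the other genes, Trdc and Trbc1 lay above both fm_neg libraries in all 3 fm_neg_Gata3flox libraries, Cd3e, Cd3d, Cd3g, Cd247 and Lat lay below both, and Trac and Tcrg-C1 overlapped; none was called. Trdc, the delta constant gene, had 67.9, 57.2 and 38.1 CPM in fm_neg_Gata3flox libraries, against 26.4 and 27.8 CPM in fm_neg libraries (log2 fold change 1.005 ± 0.49, adjusted p = 0.310). Trbc1 had a log2 fold change of 0.39 ± 0.19 (adjusted p = 0.312). For Cd3e, Cd3d, Cd3g, Cd247 and Lat the log2 fold changes were -1.19 ± 0.94, -0.56 ± 0.82, -0.73 ± 0.50, -0.78 ± 0.33 and -0.39 ± 0.18. The fm_neg libraries also had the highest summed fibroblast and keratinocyte markers of all groups, and the part of that RNA in these values was not tested.

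In reporter-positive ILCs none of the 10 genes was called between fm_pos_Gata3flox and fm_pos, against 1.52% of all genes called (1.11% higher and 0.418% lower), and 3 of the 10 genes and 3333 of all genes had an unadjusted p under 0.05. Lat had 571, 448 and 520 CPM in fm_pos_Gata3flox libraries, against 1010 and 738 CPM in fm_pos libraries. Trbc1 had 832, 831 and 867 CPM in fm_pos_Gata3flox libraries, against 488 and 542 CPM in fm_pos libraries. All 3 floxed libraries lay below the intact ones for Lat (-0.77 ± 0.18, adjusted p = 0.0675) and above them for Trbc1 (0.71 ± 0.19, adjusted p = 0.0998). Trac had 73.7, 49.7 and 44.3 CPM in fm_pos_Gata3flox libraries, against 237 and 55.7 CPM in fm_pos libraries, where the difference rested on fm_pos 1 (-1.39 ± 0.48, adjusted p = 0.172; 0.00 without fm_pos 1). Without fm_pos 2, Trac (-2.09, adjusted p = 0.00945) and Lat (-0.98, adjusted p = 0.0303) were called. Groups did not overlap for 4 of 10 genes, against 33.0% of all genes. The median log2 fold change was -0.64 over the 10 genes, against 0.18 over all genes.

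After tamoxifen, the gamma constant gene Tcrg-C1, Trdc and Trac had higher CPM in both libraries labelled Gata3KO_tamoxifen than in both wild-type libraries, and no gene of the 13272 tested was called, so the background was 0.00%. Tcrg-C1 had 127 and 129 CPM in Gata3KO_tamoxifen libraries, against 56.1 and 41.0 CPM in WT_tamoxifen libraries. Trdc had 27.2 and 31.5 CPM in Gata3KO_tamoxifen libraries, against 12.1 and 9.38 CPM in WT_tamoxifen libraries. Trac had 300 and 337 CPM in Gata3KO_tamoxifen libraries, against 142 and 216 CPM in WT_tamoxifen libraries. None of the 3 genes overlapped between the genotypes. Tcrg-C4, another gamma constant gene, did, with 295 and 227 CPM in Gata3KO_tamoxifen libraries, against 285 and 180 CPM in WT_tamoxifen libraries. Their log2 fold changes were 1.40 ± 0.27 (adjusted p = 0.585), 1.45 ± 0.45 (adjusted p = 0.585) and 0.83 ± 0.27 (adjusted p = 0.594). At an unadjusted p under 0.05, these 3 of 10 genes passed, and 915 of 13272 genes did. DESeq2 called 200 genes, and among the 10 only Tcrg-C1 (log2 fold change 1.41, adjusted p = 0.00669).

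Cd247 was also higher in both Gata3KO_tamoxifen libraries, with 47.1 and 79.7 CPM against 41.5 and 21.3 CPM in WT_tamoxifen libraries (1.01 ± 0.47, adjusted p = 0.832). The remaining CD3 chain genes overlapped between genotypes. Cd3g had 345 and 373 CPM in Gata3KO_tamoxifen libraries, against 258 and 542 CPM in WT_tamoxifen libraries. Cd3e had 17.7 and 7.35 CPM in Gata3KO_tamoxifen libraries, against 7.02 and 18.3 CPM in WT_tamoxifen libraries, and Cd3d had 91.2 and 77.998 CPM in Gata3KO_tamoxifen libraries, against 84.6 and 75.6 CPM in WT_tamoxifen libraries. Lat had 416 and 406 CPM in Gata3KO_tamoxifen libraries, against 476 and 505 CPM in WT_tamoxifen libraries (-0.25 ± 0.18, adjusted p = 0.981). Of the 10 genes, 7 had genotypes that did not overlap, against 36.1% of all genes. The skin gamma-delta T cell markers summed to 1247 to 1254 CPM in Gata3KO_tamoxifen libraries, against 790 to 898 CPM in WT_tamoxifen libraries, of which Trdv4 had 902 and 836 CPM, against 548 and 672 CPM. Trdv4 thus supplied most of each sum. In the single skin cells below it was not higher in the cluster with the most Trdc (35.1 CPM) than in the other skin cells (39.3 CPM), which limits the sum as a measure of gamma-delta T cells. None of the 9 markers was at 0 in Gata3KO_tamoxifen libraries, and 1, Sox13, was at 0 in each WT_tamoxifen library. Their part in the gamma and delta constant gene values was not tested.

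The genes downstream of the receptor changed in small numbers. Of 24 TCR-proximal kinases and adaptors, none was called between fm_pos and fm_neg, against 2.74% of all genes. Between fm_pos_Gata3flox and fm_neg_Gata3flox 1 was called higher and 1 lower, against 0.126% and 0.235% of all genes, and between fm_pos_Gata3flox and fm_pos 0 were called higher and 2 lower, against 1.11% and 0.418%. Grap2, an adaptor that joins LAT to SLP-76, averaged 518 ± 28.5 CPM in fm_pos_Gata3flox, against 141 ± 19.2 CPM in fm_neg_Gata3flox libraries (log2 fold change 1.87 ± 0.16, adjusted p = 0.00337). Tespa1, an adaptor of thymocyte receptor signalling, averaged 93.2 ± 10.6 CPM in fm_pos_Gata3flox, against 277 ± 22.5 CPM in fm_neg_Gata3flox libraries (-1.57 ± 0.18, adjusted p = 0.00935). Tespa1 was also lower in fm_pos_Gata3flox than in fm_pos libraries, which had 255 ± 58.5 CPM (-1.45 ± 0.20, adjusted p = 0.011). Lck was measured at 276 ± 80.3 CPM in fm_pos and 159 ± 47.8 CPM in fm_neg libraries (0.80 ± 0.29, adjusted p = 0.18); neither Lck nor Zap70 was called in any comparison. Of 23 tested in the tamoxifen libraries none was called.

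Of 12 inhibitors of receptor signalling, Dgkz, a kinase that removes diacylglycerol, was higher in fm_pos (47.3 ± 2.06 CPM, against 14.5 ± 1.55 CPM in fm_neg libraries; 1.71 ± 0.34, adjusted p = 0.0305). Ptpn22, a phosphatase that acts on LCK and ZAP-70, was higher in fm_pos_Gata3flox, with 688 ± 37.0 CPM against 350 ± 36.1 CPM in fm_neg_Gata3flox (0.97 ± 0.13, adjusted p = 0.0168) and 409 ± 15.8 CPM in fm_pos libraries (0.75 ± 0.14, adjusted p = 0.0381). Pdcd1, the receptor PD-1, was higher in fm_pos_Gata3flox (146 ± 52.6 CPM) than in fm_neg_Gata3flox libraries (39.4 ± 5.07 CPM; 1.89 ± 0.31, adjusted p = 0.0431), and lower in fm_neg_Gata3flox than in fm_neg libraries (129 ± 52.0 CPM; -1.71 ± 0.34, adjusted p = 0.0467). Called higher were thus 1 of 12 between fm_pos and fm_neg (0.624% of all genes) and 1 between fm_pos_Gata3flox and fm_pos (1.11%). Between fm_pos_Gata3flox and fm_neg_Gata3flox 2 were called higher (0.126%), and between fm_neg_Gata3flox and fm_neg 1 lower (0.739%). None of the 12 was called between the tamoxifen groups, where 0.00% of all genes were.

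Of 8 tested T lineage transcription factors, Tcf7, which encodes TCF-1 and acts in early T cell and ILC precursors, was higher in reporter-positive ILCs on both backgrounds: 274 ± 21.1 CPM in fm_pos_Gata3flox, against 125 ± 27.8 CPM in fm_neg_Gata3flox libraries (1.13 ± 0.18, adjusted p = 0.0349), and 191 ± 11.7 CPM in fm_pos, against 83.9 ± 2.01 CPM in fm_neg libraries (1.18 ± 0.22, adjusted p = 0.0252). Tcf7 was the 1 of 8 called higher in each, against 0.126% of all genes in mice labelled Gata3flox and 0.624% in intact mice. Of 8 coreceptors and costimulatory receptors none was called in any comparison, against 0.00 to 2.74% of all genes by comparison. At these shares 8 genes are too few to set the list apart from other genes. Cd28 came closest, with 122 ± 39.9 CPM in fm_pos_Gata3flox, against 308 ± 44.6 CPM in fm_neg_Gata3flox libraries (-1.33 ± 0.24, adjusted p = 0.0627). The 3 other gamma constant genes were not called either, against the same shares of all genes. Tcrg-C4 had 254 ± 37.0 CPM in fm_pos_Gata3flox, against 114 ± 7.72 CPM in fm_neg_Gata3flox libraries (1.16 ± 0.20, adjusted p = 0.0533). Tyrobp, an adaptor of other receptors with the same kind of signalling motif as the CD3 chains, averaged 194 ± 67.9 CPM in fm_pos_Gata3flox, against 1.95 ± 1.33 CPM in fm_pos libraries (6.65 ± 0.71, adjusted p = 0.0053). Its level in fm_pos was also below the 62.2 ± 41.3 CPM of fm_neg libraries (-5.01 ± 0.67, adjusted p = 0.00612). Markers of other cells that use Tyrobp are given beside it. The 10 myeloid markers summed to 560 to 1334 CPM in fm_pos_Gata3flox, against 284 to 437 CPM in fm_pos libraries, which in turn stood against 611 to 612 CPM in fm_neg libraries. The 8 NK and ILC1 markers summed to 69.5 to 136 CPM in fm_pos_Gata3flox, with 0 or 1 of 8 at 0, against 37.7 to 104 CPM in fm_pos libraries, with 4 or 6 of 8 at 0, and to 86.5 to 328 CPM in fm_neg libraries. Their part in the Tyrobp values was not tested. Of the calls named for these lists, those of Grap2 (adjusted p up to 0.0424) and Tyrobp (up to 0.0225) held with each library left out in turn. The call of Dgkz was lost without fm_pos 1, fm_neg 1 or fm_neg 2 (adjusted p up to 0.0936). Tespa1 lost its calls without fm_pos_Gata3flox 2, and that against fm_neg_Gata3flox also without fm_neg_Gata3flox 2 or 3 (up to 0.0675). Tcf7 lost its call in intact mice without either fm_neg library (up to 0.0729) and that in mice labelled Gata3flox without any 1 of the 6 libraries (up to 0.146). Ptpn22 kept a call only without fm_pos_Gata3flox 1, against fm_neg_Gata3flox (otherwise up to 0.118), and Pdcd1 only without fm_neg 1, in fm_neg_Gata3flox against fm_neg (otherwise up to 0.237). Rag1, Rag2, Dntt and Ptcra, which rearrange receptor genes or form the precursor receptor, had too few counts to be tested, with a summed level of 0 CPM in 13 of 14 libraries.

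Because the constant genes were abundant, the variable, diversity and joining segments were counted as well. A rearranged beta transcript reads V, D, J and then constant sequence, while a transcript of the unrearranged locus starts near a D segment and holds D and J but no V. The segments with the most reads of their kind were Trbd1 and Trbj1-1 in all 14 libraries, and their sequences on mm10 show what was counted, with no letters marked.
Trbd1, chr6:41533201-41533212, plus strand: gggacagggggc
Trbj1-1, chr6:41533864-41533911, plus strand: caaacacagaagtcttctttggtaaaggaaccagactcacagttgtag

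Summed beta J segments had 79.9 to 197 CPM, and beta D segments 20.6 to 59.2 CPM (not TMM-scaled). Summed beta V segments had 35.4, 8.09 and 2.29 CPM in fm_pos_Gata3flox, 13.9, 19.2 and 14.7 CPM in fm_neg_Gata3flox, 133 and 40.2 CPM in fm_pos, and 13.1 and 15.5 CPM in fm_neg libraries. They had 132 and 140 CPM in Gata3KO_tamoxifen libraries, against 82.5 and 89.5 CPM in WT_tamoxifen libraries. In fm_pos_Gata3flox 3, beta V segments thus had 2.29 CPM beside 197 CPM of J segments. Beta V counts exceeded beta J counts in 4 of the 14 libraries, which were both Gata3KO_tamoxifen libraries, fm_pos 1 and WT_tamoxifen 1. Within fm_pos and within fm_pos_Gata3flox the library with the most beta V reads was also the library with the most Cd3e, Cd3d, Cd8a and Trac. Alpha V segments had 16.9, 7.27 and 3.49 CPM in fm_pos_Gata3flox and 55.2 and 6.96 CPM in fm_pos, against 21.0, 12.2 and 14.4 CPM in fm_neg_Gata3flox and 6.58 and 6.09 CPM in fm_neg libraries. They had 53.5 and 70.4 CPM in Gata3KO_tamoxifen and 41.9 and 53.7 CPM in WT_tamoxifen libraries. Trav1 led in fm_pos 1 (711 of 1625 alpha V counts), Gata3KO_tamoxifen (440 of 1314, 355 of 1033) and WT_tamoxifen libraries (417 of 609, 480 of 900), and other segments led elsewhere. Traj33 led the alpha J segments in fm_pos 1 and both WT_tamoxifen libraries. The cells behind these reads were not tested. Segments are short, so these sums are compared between libraries and not with the levels of longer genes.

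At the delta locus 1 V segment stood out. Trdv4, the delta V segment that epidermal gamma-delta T cells use, held nearly all delta V reads in every library, and delta V segments summed to 325 to 887 CPM. The highest values were those of Gata3KO_tamoxifen libraries (887 and 835 CPM), against 587 and 642 CPM in WT_tamoxifen libraries. Gamma V segments had 39.4 and 41.6 CPM in Gata3KO_tamoxifen libraries, against 18.1 and 13.8 CPM in WT_tamoxifen libraries, without overlap, as Tcrg-C1 and Trdc did.

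**Figure D3:**
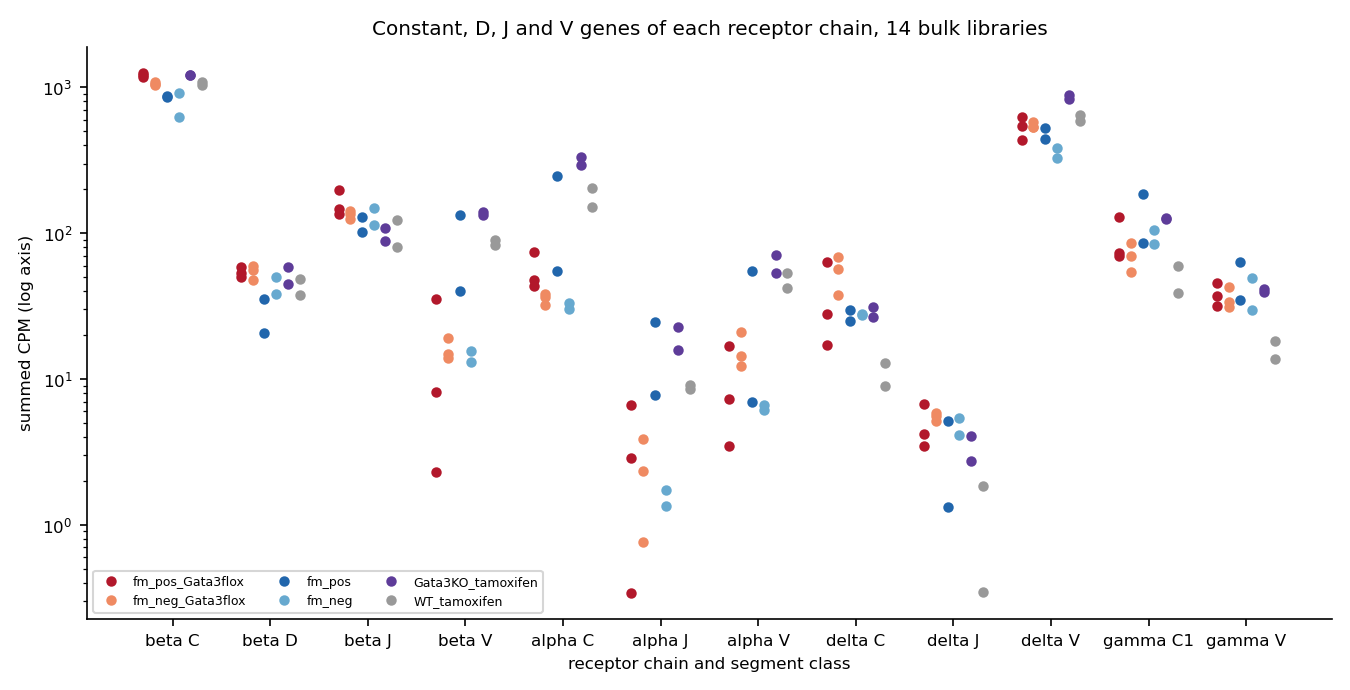
Summed CPM of receptor segments (log axis, not TMM-scaled) in each bulk library, by group from fm_pos_Gata3flox on the left to WT_tamoxifen on the right. Beta J segments stay between 79.9 and 197 CPM, while beta V segments run from 2.29 to 140 CPM.

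The CD3 chain genes varied together over the 10 fate-map libraries. Against the mean log2 CPM of the other two CD3 genes, Pearson's r was 0.922 for Cd3e, 0.969 for Cd3d and 0.823 for Cd3g. Against the mean of all 3 it was 0.638 for Tcrg-C1, 0.459 for Cd247, 0.376 for Trdc, 0.289 for Trac and 0.184 for Lat, and below 0 for Trbc2 (-0.489) and Trbc1 (-0.595). These are descriptions over 10 libraries of 4 groups that share the composition of each library. Among 8216 other genes, the patterns most like the CD3 mean were those of Cyb5a (r = 0.902), Slco3a1 (0.872), Lgals3 (0.867), Lrrc57 (0.864) and Ctsc (0.851), and without the 2 libraries farthest from the median the values were 0.768, 0.779, 0.775, 0.824 and 0.695.

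The single-cell libraries showed how the same genes were spread over cells. Filters left 4103 skin cells, 443 day 10 cells and 553 day 0 cells. A median skin cell had 2358 counts, a median day 10 cell 1811 and a median day 0 cell 1984. With 1 library per condition no test was possible, and intervals are 95% and cover counting error only. Trbc1 was counted in 54.1% of skin cells (52.6 to 55.7%, exact binomial interval), 56.9% of day 10 cells and 51.9% of day 0 cells, and Trbc2 in 41.6%, 36.8% and 39.4%. Lat followed with 24.8%, 25.7% and 20.3%. At the other end Cd3e was counted in 4.85%, 0.451% and 1.08% of cells, Cd3d in 2.58%, 0.677% and 0.904%, and Cd247 in 2.56%, 2.03% and 2.35%. Cd3g was counted in 9.94%, 16.3% and 8.86%, Trac in 11.7%, 5.64% and 6.15%, Trdc in 5.53%, 4.51% and 9.76%, and Tcrg-C1 in 7.48%, 0.677% and 1.27%, each in the order skin, day 10 and day 0. With each cell thinned to 1000 counts, which left out 168 skin, 31 day 10 and 34 day 0 cells, Trbc1 was counted in 31.7%, 38.3% and 36.2% of cells.

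Cells of other types in the skin library also had counts of these genes. In 26 skin cells of the B cell-like cluster and of a cluster led by Chil3 and Ear2, with a median of 3111 counts against 2356 counts in the other cells, Trbc1 was counted in 34.6% (17.2 to 55.7%), Trbc2 in 30.8% and Lat in 11.5%, each below the skin share but with an interval that reaches it. Cd3e, Cd3d, Cd3g and Trac were each counted in 1 of these 26 cells (3.85%, 0.0973 to 19.6%) and Trdc and Tcrg-C1 each in 2 (7.69%, 0.946 to 25.1%). The library-wide shares of Cd3d, Trdc and Tcrg-C1 were not above these values. All of these intervals hold the library-wide share, so 1 or 2 cells cannot place it above or below. Cd247 was counted in 0 of 26, which allows a share of up to 11.5%. In the 71 cells of a cluster led by C1qc and Mrc1, genes of macrophages, with a median of 2913 counts, Trbc1 was counted in 59.2% (46.8 to 70.7%), Trbc2 in 38.0%, Lat in 28.2%, Cd3g in 11.3% and Cd3d in 0, so the library-wide shares of Trbc1, Lat and Cd3g were not above those in this cluster. Its ILC identity genes summed to 4871 CPM, against 6167 CPM in the largest skin cluster. Free RNA and doublets as sources of these counts were not tested.

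**Figure D4:**
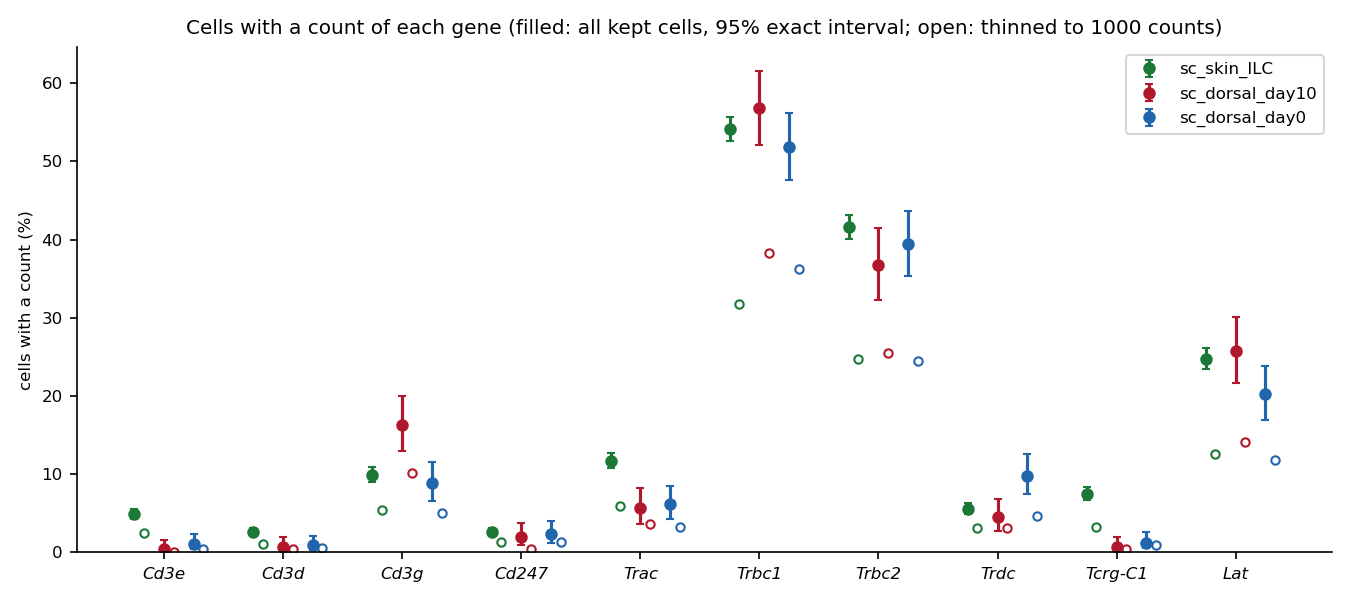
Percent of cells with at least 1 count of each gene in sc_skin_ILC, sc_dorsal_day10 and sc_dorsal_day0; filled points are all kept cells with exact 95% binomial intervals, and open points are cells thinned to 1000 counts. Trbc1 and Trbc2 lie above 36% in all 3 libraries before thinning, while Cd3e, Cd3d and Cd247 lie below 5%.

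In the skin library a small group of cells held most of the CD3 epsilon and delta counts. Cells were clustered without the 10 genes, all receptor segments and the signalling lists. The cluster led by Cd40lg and Blk had 192 cells, 4.68% of the library, and is called here by its leading genes. The 9 skin gamma-delta T cell markers summed to 1046 CPM there, with 0 of 9 at 0, against 59.2 to 319.8 CPM in the other skin clusters. Of these markers, Blk, Scart1, Scart2 and Sox13 were not left out of the clustering, so the sum is a description and not independent of it. Most of it lay in Scart2 (430 CPM, against 95.3 CPM in the other skin cells), Blk (296 CPM) and Scart1 (238 CPM). Scart2 is another name of 5830411N06Rik, the name used here for the bulk and dorsal libraries. The 9 alpha-beta T cell markers summed to 138 CPM there, with 2 of 9 at 0. This lay within the 59.2 to 307 CPM of the other skin clusters, of which the cluster led by Bub1 and Klrc1 had the most. In the Cd40lg and Blk cluster Cd6 had 16.5 CPM, against 0.41 CPM in the other skin cells. Cd5 was at 0 counts there, and Cd4, Cd8a, Cd8b1 and Themis had 2 to 4 counts. In the same cluster Cd3e had 397 CPM and was counted in 50% of cells, Cd3d 167 CPM and 30.7%, and Cd3g 389 CPM and 51.6%. It held 55.7% of all Cd3e counts, 55.9% of Cd3d, 32.0% of Cd3g, 42.7% of Trdc and 29.8% of Trac counts, but only 3.24% of Trbc1 counts. The cluster led by Bub1 and Klrc1 (83 cells) also had more of the CD3 chains than the remaining skin clusters. It had 119 CPM of Cd3e, 94.1 CPM of Cd3d and 105 CPM of Cd3g, and held 18.6% of all Cd3d counts. Its Tcrg-C1 was at 230 CPM, against 182 CPM in the Cd40lg and Blk cluster. Its 8 NK and ILC1 markers summed to 565 CPM, the highest of the skin clusters. Trbc1 was lower in the Cd40lg and Blk cluster (283 CPM) than in the largest clusters. These were led by Hr and Pou2af1 (2061 cells, 415.4 CPM) and by Hspa1a and Tnfsf9 (1510 cells, 444 CPM).

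Zbtb16, Il17a and Blk were not left out of the clustering either, and their values are given as a description. Zbtb16, which encodes PLZF, had 180 CPM there and 7.28 CPM in the other skin cells, and Il17a had 186 CPM and 8.92 CPM. Blk had 296 CPM and 5.43 CPM. Gata3 was lower, at 428 CPM and 1761 CPM. Of the 192 cells, 88 had Trac without Trdc, 31 had Trdc without Trac, 7 had both and 66 had neither, so alpha and delta constant transcripts were mostly found in different cells. A CD3 chain was counted in 144 of them, and 25 of the 40 skin cells with all 3 CD3 chains were in this cluster.

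The beta constant genes changed places in it. Trbc2 took 78.2% (74.8 to 81.4%) of the Trbc1 and Trbc2 counts in the Cd40lg and Blk cluster and 63.1% (57.2 to 68.7%) in the cycling cluster led by Bub1 and Klrc1 (83 cells), but 39.5% (38.0 to 41.1%) in the Hr and Pou2af1 cluster, 40.7% in the Hspa1a and Tnfsf9 cluster and 42.4% in the ILC2-like cluster with Klrg1, Il1rl1, Arg1 and Pparg (160 cells). In the 3 dorsal clusters it was 34.3 to 43.1%. The near identity of both genes limits each of these shares.

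**Figure D5:**
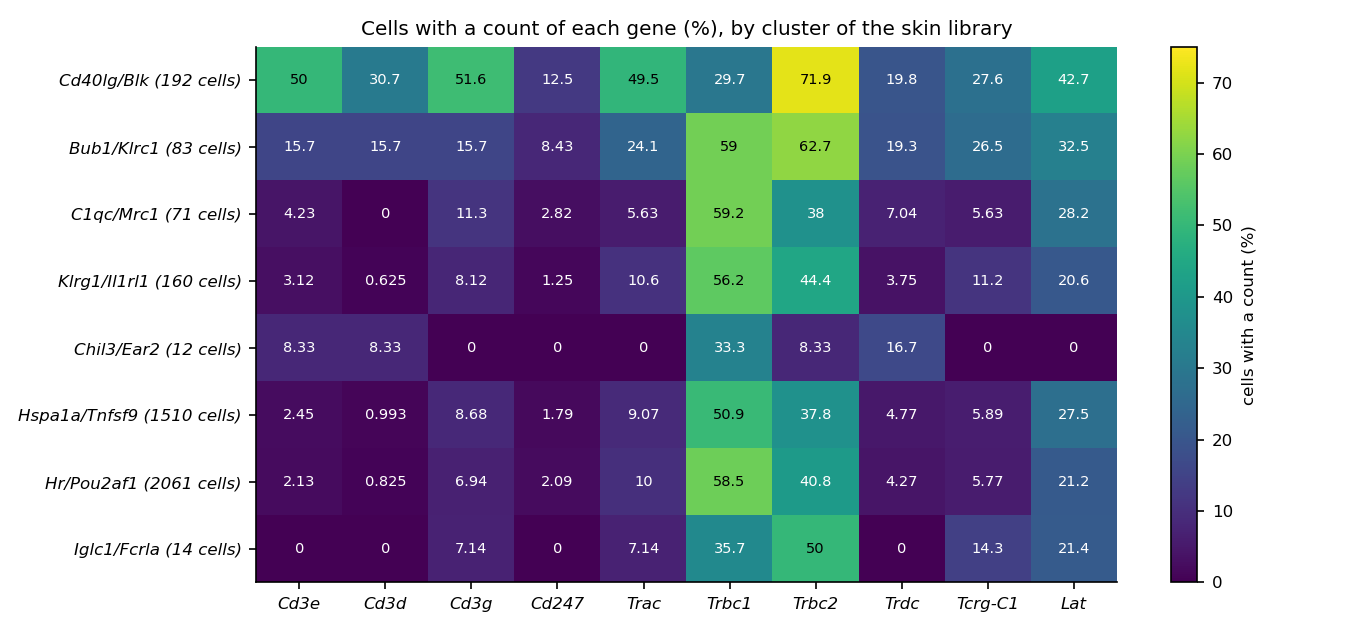
Percent of cells with a count of each gene in each skin cluster, clusters named by their leading genes. The row of the Cd40lg and Blk cluster has the highest shares of Cd3e (50%), Cd3g (51.6%) and Trac (49.5%) and a low share of Trbc1 (29.7%).

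Without that cluster, 3911 skin cells remained, a choice made after seeing the data. Cd3e was then counted in 2.63%, Cd3d in 1.20% and Cd3g in 7.90% of cells, while Trbc1 (55.3%), Trbc2 (40.1%) and Lat (23.9%) stayed close to their values over all cells. Over all skin cells, 3550 had no CD3 chain, 433 had 1, 80 had 2 and 40 had 3. Trac was counted in 65.0% of the cells with 2 chains, against 9.18% of the cells with none, at medians of 2668 and 2334 counts, whereas Trbc1 was counted in 33.8% and 55.0%. In the dorsal libraries 2 chains were counted in 1 of 443 day 10 cells and 5 of 553 day 0 cells, and 3 chains in none.

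Receptor segments were rarely counted in single cells. In skin cells beta J segments had 244 counts and beta V segments 20. Trdv4 had 400 of the 406 delta V counts, with 35.1 CPM inside the Cd40lg and Blk cluster and 39.3 CPM outside it, while Trdc had 430 CPM inside and 28.6 CPM outside. Among signalling kinases, Zap70 was counted in 30.2% and Lck in 15.4% of skin cells, while of the 9 alpha-beta T cell markers Cd28 was counted in 18.4%, Zbtb7b in 2.998% and the other 7 in 0.0244 to 0.536% of them.

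Between day 10 and day 0 after depilation, 4 of the 10 genes had a ratio whose counting interval excluded 1, against 15.9% of 9511 genes. Cd3g had 129 CPM on day 10 and 53.8 CPM on day 0, a ratio of 2.39 (1.74 to 3.31), and with cells thinned to 1000 counts it was counted in 10.2% of day 10 cells and 5.01% of day 0 cells. Trbc1 had 596 CPM on day 10 and 474 CPM on day 0 (1.26, 1.11 to 1.42), and Lat 161 CPM on day 10 and 126 CPM on day 0 (1.28, 1.01 to 1.63). Trdc went the other way, with 33.6 CPM on day 10 and 63.2 CPM on day 0 (0.532, 0.334 to 0.828). The CD3 partners of Cd3g had few counts: Cd3e had 4 counts on day 10 and 10 on day 0 (ratio 0.543, 0.124 to 1.88), and Cd3d 3 and 6 (0.679, 0.110 to 3.18), an interval that holds the ratio of Cd3g. A change of 2-fold or more was seen for 1 of the 10 genes, Cd3g, against 9.53% of all genes. With 1 library a day these are differences between libraries, not shown to be differences between days.

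The dorsal clusters differed in size between days, with 238 day 10 and 151 day 0 cells in the cluster led by Il1r2 and Il1rl1, and 113 day 10 and 311 day 0 cells in the cluster led by 5830411N06Rik and the reporter transcript tdtomato. Cd3g had 102 CPM in the cluster led by Il1r2 and Il1rl1 and 62.7 CPM in that led by 5830411N06Rik, while Trdc had 26.6 CPM and 72.0 CPM. The remaining dorsal cluster, led by Egr2 and Nfkbid, had 92 day 10 and 91 day 0 cells. Its Cd3g was at 104 CPM and its Trdc at 58.3 CPM. On day 0, cells with a tdtomato count (113 cells) had 101 CPM of Trdc (66.5 to 147) and cells without (440 cells) 52.0 CPM (38.2 to 69.2), at medians of 2321 and 1896 counts per cell. On day 10 only 28 cells had a tdtomato count, with 1 Trdc count.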

How the data were processed

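Sorted mouse skin ILCs were measured by bulk RNA-seq, in 14 libraries, and by single-cell RNA-seq, in 3. The build mm10 and the tools HISAT2 2.1.0, featureCounts and Subread are named, per the submitters' processing notes. The values the authors deposited are raw counts per gene, per library in bulk and per cell in single-cell tables. The strand setting, the handling of reads with several matches and the single-cell platform were not given in the sources used here.

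The 10 genes and all gene lists were chosen with earlier results of these data known. In R 4.3.3 with edgeR 4.0.16, genes were filtered with filterByExpr, scaled with TMM factors and tested with the quasi-likelihood test, in 1 fit of the 10 fate-map libraries (17456 genes) and another of the 4 tamoxifen libraries (13272 genes). A gene was called at a Benjamini-Hochberg adjusted p under 0.05 over all genes tested. SDs are between libraries and SEs are from the fit. From each signalling list the called genes were named, up to 4 a list and comparison, or else the gene with the smallest p; the 5 genes most like the CD3 mean were taken by Pearson's r. Lck, Zap70 and single T cell markers were added after their values were seen. The test was also tested on simulated counts. By comparison it recovered 0 to 4% of log2 changes of 1 and 19.4 to 38% of log2 changes of 2. False calls were 4 between the tamoxifen groups and 0 in the fate-map comparisons tried. A gene that was not called is therefore not shown to be unchanged. Alternatives were DESeq2 1.42.0, other scalings, other filters on low counts, covariates, and fits without 1 library.

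Single cells with at least 200 genes and at most 10% mitochondrial counts were kept; that limit acted only on the skin library, since the dorsal tables list 0 mitochondrial genes. Scrublet marked 3 skin (0.068%), 11 day 10 and 11 day 0 cells as doublets, which were removed; at that rate doublets in the skin library may remain. The 4 barcodes shared by the skin and day 0 libraries are the only shared ones. Cells were clustered in scanpy 1.11.5 (2000 variable genes, 30 components, 15 neighbours, Leiden resolution 0.5) without the 10 genes, the receptor segments and the signalling lists. Clusters were named by their leading genes. In the skin table Tcrg-C1 is listed under its RefSeq synonym. Promoters came from RefSeq and constant gene sequences from GENCODE vM21. Some items are not reported here.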

Additional observations from a re-analysis of the deposited data

Results flagged for a closer look

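The difference between reporter-positive and reporter-negative ILCs differed between mice labelled Gata3flox and mice with intact Gata3 for 3 genes of the signalling lists, by edgeR's interaction test. Tespa1 was lower in fm_pos_Gata3flox than in fm_neg_Gata3flox (log2 fold change -1.57) and close to equal in fm_pos and fm_neg (0.09), an interaction of -1.66 ± 0.28 (adjusted p = 0.0326). Pdcd1 was higher in fm_pos_Gata3flox than in fm_neg_Gata3flox (1.89), with -0.63 for fm_pos over fm_neg, an interaction of 2.51 ± 0.49 (adjusted p = 0.0461). Tyrobp had -0.98 for fm_pos_Gata3flox over fm_neg_Gata3flox and -5.01 for fm_pos over fm_neg, an interaction of 4.03 ± 0.77 (adjusted p = 0.0427). In the same interaction 1 of 8 NK and ILC1, 3 of 9 keratinocyte, 2 of 7 fibroblast and 1 of 5 endothelial markers were called higher. Of 12 ILC2 markers 1 was called lower. Over all genes 0.825% were called higher and 0.183% lower. The part of other cells in the Tyrobp value was not tested. All 3 calls were lost without fm_neg 2 and without any 1 of the 6 Gata3flox libraries, that of Pdcd1 also without fm_pos 1 and that of Tyrobp also without fm_pos 2. In fits that left out 1 library the adjusted p reached 0.0944 for Tespa1, 0.129 for Pdcd1 and 0.116 for Tyrobp, and the interaction kept its sign. None of the 10 receptor complex genes had a called interaction.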

How the results depend on the processing

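The number of the 10 genes called depended on the processing. Between fm_pos and fm_neg, 2 were called, and 0 with DESeq2-type (RLE) size factors in edgeR, scaling to leukocyte genes, the file name token as a covariate or the libraries of both groups alone; leaving out 1 library gave 0 to 3. Between fm_pos_Gata3flox and fm_pos, 0 were called, and 3 with DESeq2, 3 without the low-count filter, 1 among genes averaging 5 CPM or more and 1 with leukocyte scaling; leaving out 1 library gave 0 to 2. Between fm_neg_Gata3flox and fm_neg, 1 was called, and 0 with RLE factors, leukocyte scaling, the token or both groups alone; leaving out 1 library gave 0 in each case. Leaving out 1 library gave 0 to 1 in the interaction. Between Gata3KO_tamoxifen and WT_tamoxifen DESeq2 called 1. No direction of a called gene was reversed by these settings. Over all genes, between fm_pos and fm_neg 109 were called higher and 369 lower, against 607 and 1601 by DESeq2, 336 and 988 without the low-count filter, 40 and 765 with leukocyte scaling, 34 and 192 with the replicate block, 40 and 210 with the token and 0 and 29 from both groups alone. Leukocyte scaling also changed the split between fm_pos_Gata3flox and fm_pos (300 and 31, against 193 and 73) and between fm_neg_Gata3flox and fm_neg (24 and 152, against 104 and 129; RLE factors 53 and 131). Leaving out 1 library moved these counts by over 1.5 times in every fate-map comparison, for example to 198 and 679 between fm_pos and fm_neg without fm_pos 2, and to 2 and 0 between fm_pos_Gata3flox and fm_neg_Gata3flox without fm_pos_Gata3flox 2, against 22 and 41.

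Libraries with the same replicate number did not deviate together in every pair (correlations of -0.0123 to 0.160), so the numbers are not taken as pairs. With the replicate number as a block, 0 of the 10 genes were called between fm_pos and fm_neg (Trbc2 0.74, adjusted p = 0.0886; Lat 0.88, adjusted p = 0.0794) and 0 between fm_neg_Gata3flox and fm_neg (Trbc2 0.71, adjusted p = 0.0958).

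In single cells, 4 skin and 4 day 10 genes were counted in at least 10% of cells, and 2 and 2 when at least 2 counts were asked for. Depth limits Cd3e, Cd3d and Cd247 in the dorsal libraries, with 3 to 14 counts each.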
